A study of Avena sativa with 108 samples.

Results

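The 4 oat genes described here are annotated CSLF8 (cellulose synthase-like F8), and they were taken by identifier from the count tables, which list 68572 genes. They are AVESA.00001b.r3.2Cg0000603 and AVESA.00001b.r3.2Dg0002573, on chromosomes 2C and 2D, and AVESA.00001b.r3.6Ag0001684 and AVESA.00001b.r3.6Dg0001363, on chromosomes 6A and 6D. Each is matched in the deposited tables to the rice protein named probable mixed-linked glucan synthase 8. They are called CSLF8_2Cg0000603, CSLF8_2Dg0002573, CSLF8_6Ag0001684 and CSLF8_6Dg0001363, and the genes on chromosomes 2C and 2D, and on 6A and 6D, are called the chromosome 2 pair and the chromosome 6 pair. All 4 passed the filter on low counts in both experiments.

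Mixed-linkage (1,3;1,4)-β-glucan (MLG) is a cell wall polysaccharide of grasses and, in oat grain, lies mainly in the walls of the endosperm and aleurone. It is made by enzymes of the cellulose synthase-like F family and, to a lesser extent, the H family, of which CSLF6 is the main synthase in cereals and the parts played by CSLF8 are less settled. During germination the stored walls of the endosperm are broken down by glucanases, while the growing embryo makes new walls. Oat is a hexaploid with A, C and D subgenomes, so that a gene is commonly present as several near-identical homeologs.

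The expression of the genes was followed by RNA-seq in 2 oat cultivars, CDC Morrison, with the higher MLG content in grain, and AC Morgan, with the lower. Whole developing grain was sampled from each cultivar 5, 10, 15, 20, 25, 30, 35 and 40 days after the panicle emerged (days postemergence, DPE), with 3 libraries for each cultivar and day. Embryo and endosperm were separated from germinating grain of both cultivars at 0, 3, 6, 24 and 48 h, with 3 libraries for each cultivar, tissue and hour, which makes 60. Both cultivars are unmodified commercial lines, and no group carries a treatment beyond germination on damp filter paper.

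Total counts per library were 11235846 to 30846412 in developing grain (47 libraries), 3895703 to 39871377 in embryo (30) and 4800265 to 19597061 in endosperm (30). CDC Morrison 10 DPE replicate 1, with 2184611 counts, was left out, as in the normalized table of the authors. It held 21.4 estimated counts of CSLF8_2Cg0000603, 9.63 of CSLF8_2Dg0002573 and none of the chromosome 6 pair. The tissue labels were checked with lists of marker genes: the summed level of 57 seed storage protein genes was 27.6 to 8646 CPM in embryo libraries, highest at 0 h, against 8654 to 162953 CPM in endosperm libraries. In whole grain this sum was 319487 to 900617 CPM at 15 DPE, against 40.0 to 302 CPM at 5 and 10 DPE. Of 23 meristem genes, 17 to 23 were detected in embryo libraries and 8 to 18 in endosperm libraries. Their summed levels overlapped, and the median was lower in embryo than in endosperm at 0 h (134 against 158 CPM) and 3 h (141 against 166 CPM). It was higher in embryo at 6, 24 and 48 h. In such tissues fewer cells of a type and less RNA per cell cannot be told apart, and whole grain also holds maternal layers.

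Levels are given as CPM (counts scaled by TMM to a common library size) and are compared within a gene only, because gene lengths were not used here. Reads were shared between the homeologs by the quantification. The estimated counts of the chromosome 2 pair summed to a whole number (within 0.005) in 48 of 48 libraries of grain and 60 of 60 of germination, while the counts of a single member were not whole in 48 and 52 of them. The chromosome 6 pair summed to a whole number in 43 of 48 and 47 of 60 libraries, and in all 108 once a further CSLF8 gene on chromosome 6C was added. The division within a pair is therefore an estimate, and sums of a pair are firmer than single members. Differences are on the log2 scale, each with a standard error (SE), from the quasi-likelihood test of edgeR. Their p-values were adjusted by the Benjamini-Hochberg method over every gene tested, and the threshold was 0.05.

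In developing grain, 3 of the 4 genes were expressed mainly in young grain (5 and 10 DPE) and the fourth, CSLF8_2Cg0000603, was expressed throughout. CSLF8_2Dg0002573 fell by 3.21 on the log2 scale in later grain (15 to 40 DPE) relative to young grain (SE 0.186, adjusted p = 1.94e-17), where 38.4% of all genes tested were called lower. Both members of the chromosome 6 pair were at or near 0 in every library from 15 DPE onwards, and in CDC Morrison already at 10 DPE. At 10 DPE more than a trace of the pair was found in AC Morgan only.

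CSLF8_2Dg0002573 had 46.7, 23.7 and 10.5 CPM in the CDC Morrison libraries of 5 DPE, 11.8 and 7.10 CPM in those of 10 DPE, then 2.48, 2.93 and 3.63 CPM in those of 15 DPE. The AC Morgan libraries had 14.7, 5.77 and 21.4 CPM at 5 DPE, 12.1, 19.9 and 15.5 CPM at 10 DPE, then 2.76, 1.44 and 2.40 CPM at 15 DPE. Every library of 15 DPE lay below every library of 5 and 10 DPE in both cultivars. The lowest, median and highest values were 1.27, 2.85 and 8.06 CPM over the 18 libraries of 15, 20 and 25 DPE, 0.681, 1.42 and 3.26 CPM over the 6 of 30 DPE, and 0.185, 0.635 and 1.24 CPM over the 12 of 35 and 40 DPE. The only later values above the lowest young one, 5.77 CPM, came from CDC Morrison at 20 and 25 DPE. Its libraries had 8.06, 3.18 and 6.50 CPM at 20 DPE, then 6.83, 6.28 and 5.13 CPM at 25 DPE, of which 3.18 and 5.13 CPM lay below it.

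The decline of CSLF8_2Dg0002573 thus took place in steps. Between 10 and 5 DPE no step passed the test over both cultivars (−0.66, SE 0.351, adjusted p = 0.231). In CDC Morrison it was −1.51 (SE 0.544, adjusted p = 0.0519) and passed with DESeq2 (adjusted p = 0.0359), library size alone (0.0361) and limma (0.0345). In AC Morgan it was 0.18 (SE 0.461, adjusted p = 0.933), and the difference between the cultivars did not pass (−1.69, adjusted p = 0.153). The gene fell by 2.25 at 15 relative to 10 DPE (SE 0.367, adjusted p = 7.6e-06), where 20.0% of all genes tested were called lower. It fell again by 1.25 at 30 relative to 25 DPE (SE 0.362, adjusted p = 0.00782; 15.6% of genes lower) and by 1.65 at 35 relative to 30 DPE (SE 0.418, adjusted p = 0.00272; 18.3% of genes lower). The step at 30 DPE did not pass with library size alone (−0.85) or without replicate 1 (−1.09) or replicate 2 (−1.22), and the step at 35 DPE did not pass without replicate 3 (−0.98). Over all later against young grain the difference was −2.90 in CDC Morrison (SE 0.270, adjusted p = 1.44e-11; 34.2% of genes lower) and −3.52 in AC Morgan (SE 0.259, adjusted p = 3.98e-14; 34.0% of genes lower). For the summed chromosome 2 pair the step at 15 DPE was −1.19 over both cultivars (adjusted p = 0.00518). It passed in AC Morgan (−1.99, adjusted p = 0.0012) but not in CDC Morrison (−0.38, adjusted p = 0.632). The summed pair fell at 30 DPE (−1.20, adjusted p = 0.00472), but its step at 35 DPE did not pass (−0.55, adjusted p = 0.222). Later against young grain, the sum was lower in CDC Morrison (−1.71) and in AC Morgan (−1.97).

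**Figure D1:**
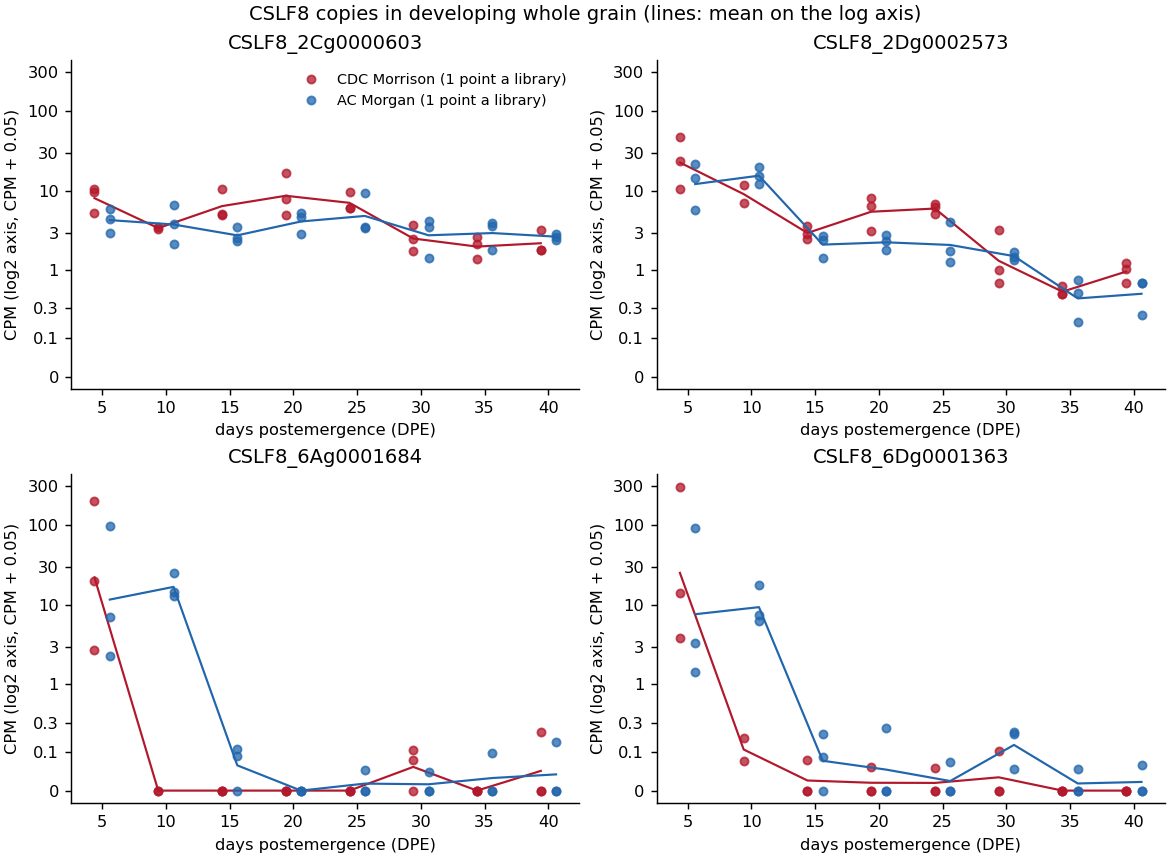
Level of the 4 CSLF8 genes in developing grain by day postemergence of the panicle (x axis, DPE), as CPM with 0.05 added on a log2 axis, with 1 point a library and lines through the group means. From 15 DPE onwards no library of CSLF8_6Ag0001684 or CSLF8_6Dg0001363 exceeded 0.251 CPM, while CSLF8_2Cg0000603 stayed between 1.39 and 17.0 CPM.

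The chromosome 6 pair varied widely between libraries of the youngest grain. CSLF8_6Ag0001684 had 19.7, 197 and 2.74 CPM in CDC Morrison at 5 DPE, against 7.12, 2.32 and 95.8 CPM in AC Morgan of the same age. CSLF8_6Dg0001363 had 14.0, 295 and 3.82 CPM in the same libraries of CDC Morrison, against 3.37, 1.45 and 90.6 CPM in those of AC Morgan. In each cultivar 1 library of 5 DPE was far above the others for both genes, replicate 2 in CDC Morrison and replicate 3 in AC Morgan, and the ranges of the cultivars overlapped.

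At 10 DPE the cultivars no longer overlapped for this pair. CSLF8_6Ag0001684 had 0 and 0 CPM in CDC Morrison, against 13.1, 24.9 and 14.7 CPM in AC Morgan. CSLF8_6Dg0001363 had 0.0660 and 0.176 CPM in CDC Morrison, against 6.30, 17.7 and 7.50 CPM in AC Morgan. Against a floor of 3 counts over the group, CSLF8_6Ag0001684 was at least 382-fold lower in CDC Morrison (0 against 2121 counts, adjusted p = 0.00102), where 11.2% of genes were called lower. CSLF8_6Dg0001363, with 8 counts against 1280, was 86.4-fold lower in CDC Morrison (counting interval 43.7 to 201, adjusted p = 0.00448). Its call was lost when either CDC Morrison library of 10 DPE alone was left out (adjusted p up to 0.067). The fitted difference was then −5.86 and −7.21, and the library that remained was taken to vary like those of other groups. Counting intervals and floors cover counting error only.

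The step at 10 relative to 5 DPE accordingly differed between the cultivars. In CDC Morrison CSLF8_6Ag0001684 was at least 1637-fold lower at 10 DPE (0 counts in 2 libraries, against 9192 in 3, adjusted p = 0.000328) and CSLF8_6Dg0001363 was 883-fold lower (8 against 13218 counts, adjusted p = 0.000237), where 6.82% of genes were called lower. The call of CSLF8_6Dg0001363 was lost without replicate 2 of every group (−5.62, adjusted p = 0.0556). In AC Morgan neither gene passed the test, with differences of −1.0 (SE 0.96, adjusted p = 0.718) and −1.60 (SE 0.966, adjusted p = 0.462), and both signs turned (1.92 and 2.17) without AC Morgan 5 DPE replicate 3. The difference between the steps, CDC Morrison minus AC Morgan, was −12.77 for CSLF8_6Ag0001684 (SE 2.74, adjusted p = 0.00455) and −8.06 for CSLF8_6Dg0001363 (SE 1.92, adjusted p = 0.00787). The fitted sizes against a group with no count depend on a prior count and are no bounds. Without replicate 1 of every group the differences were as large but did not pass (−13.01, adjusted p = 0.0584, and −8.33, adjusted p = 0.0776). Without replicate 2 they were smaller and did not pass (−9.15, adjusted p = 0.142, and −2.85, adjusted p = 0.493).

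The size of the step rested on the high libraries of 5 DPE. Without CDC Morrison 5 DPE replicate 2, CSLF8_6Ag0001684 was at least 220-fold lower at 10 than at 5 DPE in CDC Morrison and CSLF8_6Dg0001363 was 67.1-fold lower (counting interval 33.8 to 156). Without AC Morgan 5 DPE replicate 3, the pooled levels in AC Morgan were instead 4.65-fold and 5.23-fold higher at 10 than at 5 DPE. With both of these libraries left out, a choice made after the data were seen, the steps still differed between the cultivars (−12.89, adjusted p = 7.64e-05, and −8.26, adjusted p = 8.92e-05).

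The 2 libraries of CDC Morrison at 10 DPE stood apart in other genes as well. The summed level of 98 genes of photosynthesis, a list for green maternal layers, was 3248 and 3715 CPM there, against 220 to 805 CPM in the other 9 young libraries. A list of 25 pollen and anther genes summed to 78.3, 220 and 105 CPM in the youngest CDC Morrison grain and to 80.2, 96.6 and 122 CPM in the youngest AC Morgan grain, and was thus highest in the library of each cultivar in which the chromosome 6 pair was highest. This was not particular to that list: among the libraries of 5 and 10 DPE of each cultivar, the meristem list was highest (81.8 CPM in CDC Morrison, 90.7 CPM in AC Morgan) and the storage protein list lowest (40.1 CPM in CDC Morrison, 40.0 CPM in AC Morgan) in the same libraries. Among the other young libraries the pair did not rise with the pollen and anther list. In AC Morgan the pair had 3.77 CPM where the list summed to 96.6 CPM, and 42.6 CPM where the list summed to 60.4 CPM. In CDC Morrison the pair had 33.8 CPM in the library with the lowest sum of that list, 78.3 CPM. At 10 DPE the pollen and anther list summed to 85.3 and 80.9 CPM in CDC Morrison, against 60.4 to 64.6 CPM in AC Morgan. The part of these cell types, or of a difference in stage, in the levels of the pair was not tested.

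**Figure D2:**
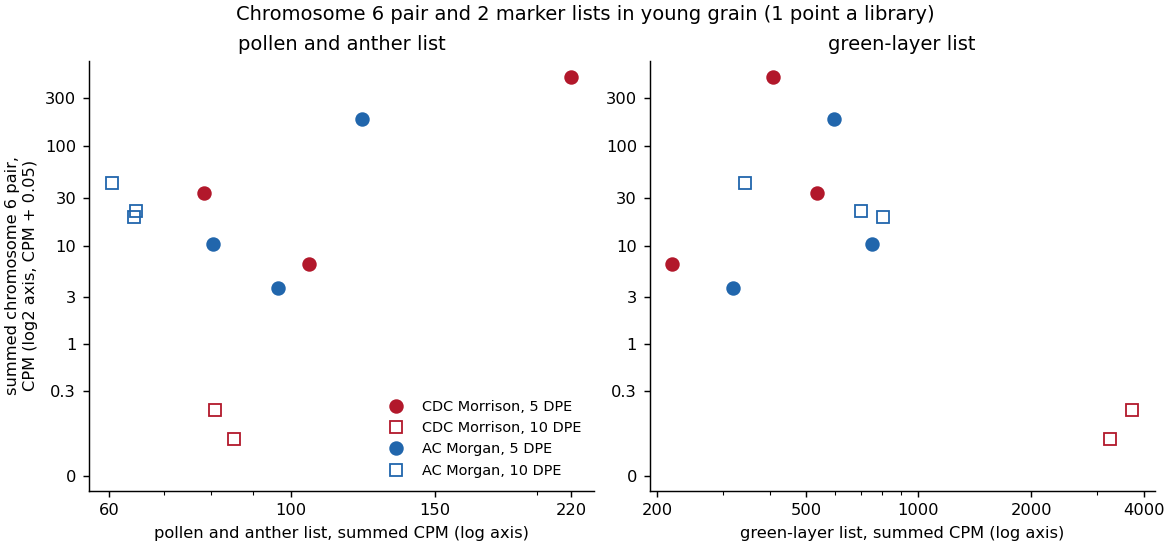
Summed level of the chromosome 6 pair (y axis, CPM with 0.05 added, log2 axis) against the summed level of the pollen and anther list and of the green-layer list (x axes, CPM, log axes) in the 11 libraries of 5 and 10 DPE. The highest pair level of each cultivar, reaching 186 CPM in AC Morgan, fell in the libraries with the highest pollen and anther sums, and both CDC Morrison libraries of 10 DPE, with 0.0660 and 0.176 CPM of the pair, had the highest green-layer sums, 3248 and 3715 CPM. Among the other libraries of each cultivar the pair did not rise with the pollen and anther sum.

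After 10 DPE the chromosome 6 pair was close to the limit of detection in both cultivars. At 15 DPE in AC Morgan CSLF8_6Ag0001684 had 0, 0.114 and 0.0828 CPM and CSLF8_6Dg0001363 had 0.200, 0 and 0.0794 CPM. Relative to 10 DPE in AC Morgan these were 274-fold lower (4 against 2121 counts, counting interval 108 to 1017, adjusted p = 0.000489) and 112-fold lower (6 against 1280 counts, counting interval 51.0 to 304, adjusted p = 0.00107), where 14.7% of genes were called lower. Over 15 to 40 DPE CSLF8_6Ag0001684 had a count in 9 of 36 libraries and never more than 0.221 CPM, and CSLF8_6Dg0001363 in 13 of 36 and never more than 0.251 CPM. These traces amounted to 4 and 6 counts at most in a library, and no pattern among the later days can be read from them.

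Over the whole later phase CSLF8_6Ag0001684 was 2113-fold lower than in young grain in CDC Morrison (8 against 9192 counts, counting interval 1072 to 4895) and 1025-fold lower in AC Morgan (11 against 6856 counts, counting interval 575 to 2062). CSLF8_6Dg0001363 was 4053-fold lower in CDC Morrison (6 against 13226 counts, counting interval 1862 to 11046) and 360-fold lower in AC Morgan (26 against 5663 counts). Without the highest 5 DPE library of each cultivar these ratios were 239-fold and 262-fold in CDC Morrison and 444-fold and 113-fold in AC Morgan. In AC Morgan the fitted differences were −9.90 (SE 0.809, adjusted p = 7.07e-11) and −8.51 (SE 0.753, adjusted p = 1.76e-11). In CDC Morrison CSLF8_6Dg0001363 also passed (−7.82, SE 2.09, adjusted p = 0.00164, with no count in 2 of 8 groups). No usable test was obtained for CSLF8_6Ag0001684 in CDC Morrison or over both cultivars, with no count in 5 of 8 and 6 of 16 groups. With cultivars and days both pooled into young and later grain, both genes were lower in later grain (−10.09, SE 0.647, adjusted p = 1.1e-17, and −9.69, SE 0.652, adjusted p = 5.59e-17). This fit was chosen after the data were seen and took libraries of different days as replicates.

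CSLF8_2Cg0000603 was the flattest of the 4 genes. It had 10.6, 9.63 and 5.27 CPM in CDC Morrison at 5 DPE, against 4.51, 2.99 and 5.99 CPM in AC Morgan. At 40 DPE it had 3.26, 1.83 and 1.80 CPM in CDC Morrison, against 2.68, 2.92 and 2.45 CPM in AC Morgan. Later grain (1.39, 3.53 and 17.0 CPM as lowest, median and highest of 36 libraries) overlapped with young grain (2.17, 4.51 and 10.6 CPM, 11 libraries). The difference did not pass the test (−0.33, SE 0.189, adjusted p = 0.123). It passed when 5 DPE alone stood for young grain (−0.68, SE 0.229, adjusted p = 0.00934), without replicate 1 (−0.46, adjusted p = 0.0498) and with all 48 libraries (−0.46, adjusted p = 0.0359). Its value also moved with the scaling, being −1.14 with library size alone (adjusted p = 8.2e-07), which moved the median of all genes in this contrast to −0.88, against −0.07 with TMM. CSLF8_2Cg0000603 fell at 30 relative to 25 DPE by 1.15 (SE 0.326, adjusted p = 0.00668), a step that did not pass with library size alone (−0.77) or without replicate 2 (−1.13).

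The highest single library of CSLF8_2Cg0000603, with 17.0 CPM, was of CDC Morrison at 20 DPE. CDC Morrison had 5.23, 4.96 and 10.5 CPM at 15 DPE, 17.0, 4.95 and 7.87 CPM at 20 DPE, then 9.69, 6.13 and 6.06 CPM at 25 DPE. Neither the step to 15 DPE in CDC Morrison (1.01, adjusted p = 0.153) nor that to 20 DPE over both cultivars (0.56, adjusted p = 0.566) passed the test. The AC Morgan libraries had 3.59, 2.55 and 2.34 CPM at 15 DPE, 2.86, 4.73 and 5.31 CPM at 20 DPE, then 3.5, 3.49 and 9.48 CPM at 25 DPE, so that the cultivars overlapped at 20 and 25 DPE but not at 15 DPE. For the chromosome 2 pair the test of cultivar by time point did not pass (adjusted p = 0.0886 for CSLF8_2Cg0000603 and 0.219 for CSLF8_2Dg0002573). The same test gave adjusted p = 0.0474 for CSLF8_6Ag0001684, with no count in 6 of its 16 groups, and 0.0851 for CSLF8_6Dg0001363.

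The balance within the chromosome 2 pair moved from the D to the C gene as the grain filled. The share of the pair's counts given to CSLF8_2Dg0002573 was 73.3 ± 6.44% at 5 DPE (SD, n = 6) and 77.0 ± 6.26% at 10 DPE (n = 5). It was 37.5 ± 8.68% on day 15, 37.1 ± 5.33% on day 20, 38.0 ± 9.39% on day 25, 35.1 ± 9.81% on day 30, 16.7 ± 6.21% on day 35 and 23.2 ± 9.43% on day 40 (n = 6 each). The highest later library, 50.7%, lay below the lowest young library, 65.9%. Between the cultivars the share differed by 2.61 points, CDC Morrison minus AC Morgan within days, which did not pass a permutation test (p = 0.259, adjusted over 8 tests of shares 0.296). This mean merges days of opposite sign. The CDC Morrison mean was lower at 5, 10, 15 and 30 DPE and higher at 20, 25, 35 and 40 DPE. The cultivars did not overlap at 25 DPE (41.4 to 50.6% in CDC Morrison, 26.7 to 33.8% in AC Morgan). Nor did they at 40 DPE (27.5 to 35.9% against 8.34 to 21.5%). Single days were not tested.

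**Figure D3:**
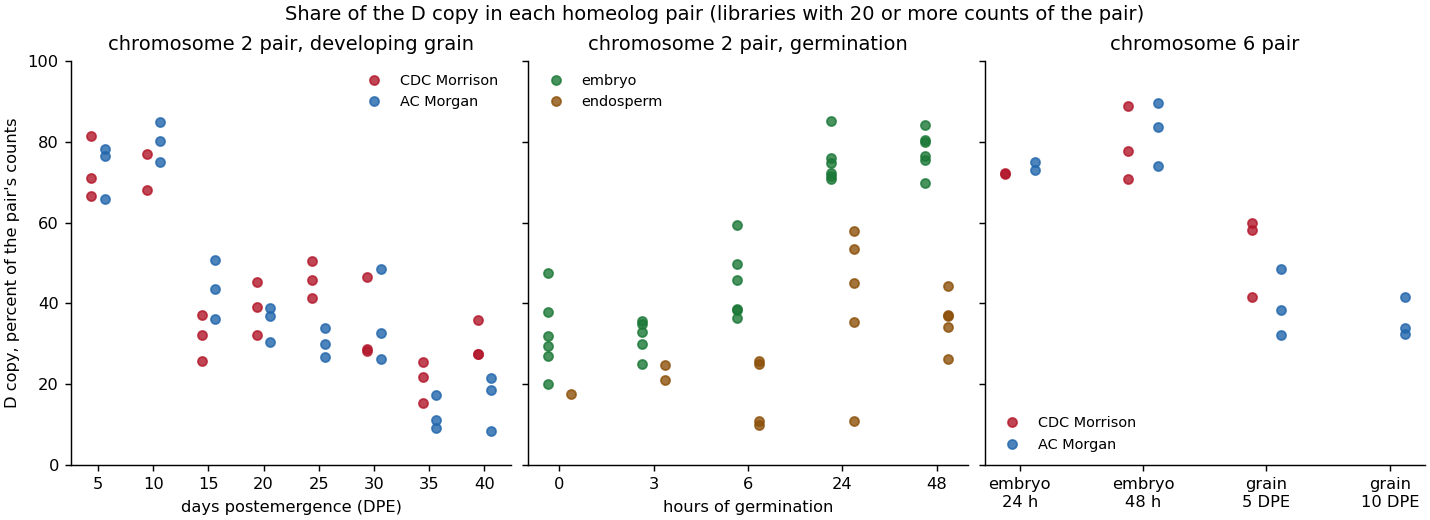
Share of the chromosome 2 pair's estimated counts given to CSLF8_2Dg0002573 (y axis, percent) by day in developing grain and by hour in germinating embryo and endosperm, with 1 point a library of at least 20 counts of the pair. The last panel gives the share of CSLF8_6Dg0001363 in the chromosome 6 pair, in embryo at 24 and 48 h and in grain at 5 and 10 DPE. In grain the share was at least 65.9% in all libraries of 5 and 10 DPE and at most 50.7% afterwards, and in embryo the mean rose between 6 and 24 h to 75.1%.

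Within the chromosome 6 pair the D gene took 32.1 to 60% of the counts in 9 young libraries with at least 20 counts of the pair. In CDC Morrison (5 DPE, n = 3) the mean was 53.3% and in AC Morgan (5 and 10 DPE, n = 6) 37.8%. At 5 DPE, the day with both cultivars, an exact permutation test of the 13.5-point difference gave p = 0.2 (two-sided; 3 against 3 libraries cannot go below 0.1).

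In germination, 3 of the 4 genes were higher in embryo than in endosperm at 24 and 48 h in tests that also called 33.9 and 35.8% of all genes higher, and the embryo levels of CSLF8_2Dg0002573 and CSLF8_6Dg0001363 rose between 6 and 24 h. CSLF8_2Dg0002573 reached 5.94 to 14.4 CPM in embryo at 48 h, and the chromosome 6 pair was again detected, at low levels, in embryo while endosperm held almost no count of it. For CSLF8_2Cg0000603 no difference between the tissues was called.

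CSLF8_2Dg0002573 had 0.344, 0.836 and 1.16 CPM as the lowest, median and highest of the 6 embryo libraries at 0 h and 0.673, 0.844 and 1.36 CPM at 3 h. These values rose to 1.01, 1.93 and 2.69 CPM at 6 h, 5.77, 7.36 and 9.80 CPM at 24 h and 5.94, 11.2 and 14.4 CPM at 48 h. Every embryo library of 24 and 48 h lay above every earlier one. The difference was 2.02 at 24 relative to 6 h (SE 0.309, adjusted p = 3.63e-07; 29.7% of genes higher) and 3.80 at 48 relative to 0 h (SE 0.348, adjusted p = 5.25e-13; 40.3% of genes higher). From 24 to 48 h the change did not pass the test (0.54, adjusted p = 0.178).

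In endosperm the level of CSLF8_2Dg0002573 differed with the cultivar. The CDC Morrison libraries had 0.379, 2.58 and 1.16 CPM at 0 h, 0.736, 0.591 and 0.543 CPM at 3 h, 0.217, 0.526 and 0.961 CPM at 6 h, 3.99, 3.25 and 3.68 CPM at 24 h and 1.49, 2.18 and 3.03 CPM at 48 h. In AC Morgan no library had a count at 0 h, and the values were 0.359, 0.152 and 0 CPM at 3 h, 0.298, 0 and 1.08 CPM at 6 h, 0.649, 0.870 and 0.205 CPM at 24 h and 0.629, 1.48 and 0.908 CPM at 48 h. CDC Morrison lay above AC Morgan in all libraries of 0, 3, 24 and 48 h, at 48 h by a narrow margin, and the cultivars overlapped at 6 h. Endosperm of CDC Morrison rose by 2.66 at 24 relative to 6 h (SE 0.511, adjusted p = 6.26e-05; 16.6% of genes higher), whereas AC Morgan gave 0.75 (SE 0.732, adjusted p = 0.517). At 24 h the gene was higher in endosperm of CDC Morrison than of AC Morgan by 2.67 (SE 0.515, adjusted p = 0.000138; 6.16% of genes higher).

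Over the 5 hours CSLF8_2Dg0002573 was higher in embryo than in endosperm by 2.33 (SE 0.214, adjusted p = 2.74e-13), where 37.6% of genes were called higher in embryo. AC Morgan endosperm at 0 h had no count, and with cultivars and hours both pooled within each tissue the difference was 2.02 (SE 0.418, adjusted p = 3.23e-05). By hour it was 1.46 at 3 h (25.8% of genes higher), 2.05 at 6 h (30.5%), 2.38 at 24 h (SE 0.332, adjusted p = 3.94e-08; 33.9%) and 2.82 at 48 h (SE 0.326, adjusted p = 5.02e-10; 35.8%). The call at 3 h was lost with the cultivars pooled (1.17, adjusted p = 0.133) and without replicate 2 (1.23) or 3 (1.30). At 0 h the difference over both cultivars was 2.94 (SE 0.965, adjusted p = 0.013; 22.5% of genes higher), but only 0.29 with the cultivars pooled (SE 0.643, adjusted p = 0.792). In CDC Morrison it did not pass at 0 h (−0.81, SE 0.58, adjusted p = 0.33), and in AC Morgan embryo was at least 4.74-fold higher (24 against 0 counts, adjusted p = 0.00127; 14.1% of genes higher).

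The distance between the tissues depended on the cultivar at 24 h. In CDC Morrison the embryo had 5.77, 7.53 and 7.18 CPM and the endosperm 3.99, 3.25 and 3.68 CPM, a difference of 0.90 that did not pass the test (SE 0.414, adjusted p = 0.0678), although the libraries did not overlap and DESeq2 called it (1.02, adjusted p = 0.0135). In AC Morgan the embryo had 8.25, 6.94 and 9.80 CPM and the endosperm 0.649, 0.870 and 0.205 CPM, a difference of 3.86 (SE 0.517, adjusted p = 3.59e-08; 27.2% of genes higher). The difference between these differences, CDC Morrison minus AC Morgan, was −2.96 (SE 0.659, adjusted p = 0.00743). It was lost without replicate 2 (−3.85, adjusted p = 0.116) or replicate 3 of every group (−2.39, adjusted p = 0.255). At 48 h the embryo was higher in both cultivars, by 2.03 in CDC Morrison (SE 0.435, adjusted p = 0.000148; 29.8% of genes higher) and by 3.62 in AC Morgan (SE 0.487, adjusted p = 4.79e-08; 28.5%), and the difference between them did not pass (−1.59, adjusted p = 0.263). In embryo alone no difference between the cultivars was called over the 5 hours (CDC Morrison minus AC Morgan −0.11, SE 0.209, adjusted p = 0.774).

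**Figure D4:**
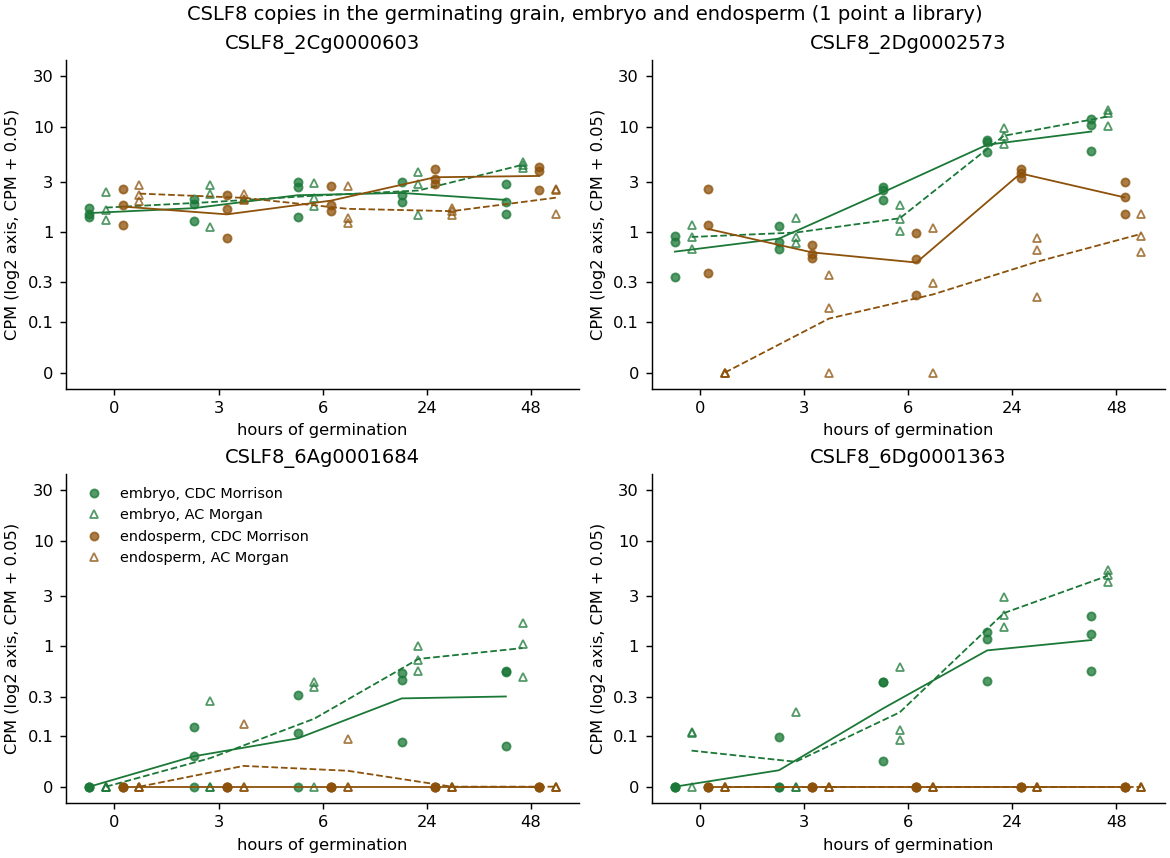
Level of the 4 CSLF8 genes in germinating grain by hour (x axis), as CPM with 0.05 added on a log2 axis, for embryo and endosperm of both cultivars, with 1 point a library and lines through the group means. CSLF8_6Dg0001363 had no count in any of the 30 endosperm libraries and reached 5.30 CPM in embryo, and the CDC Morrison endosperm of CSLF8_2Dg0002573 lay above that of AC Morgan at 24 h.

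The chromosome 6 pair was an embryo signal in these samples. CSLF8_6Dg0001363 had a count in 22 of 30 embryo libraries, 622 counts in all, and in 0 of 30 endosperm libraries, which makes it at least 110-fold higher in embryo against a floor of 3 counts over the endosperm group. CSLF8_6Ag0001684 had a count in 19 of 30 embryo libraries, 197 in all, and a single count in each of 2 endosperm libraries, 52.5-fold higher in embryo (counting interval 14.3 to 436). With no count in 11 and 10 of the 20 groups, the test over the 5 hours was not usable for either gene. With cultivars and hours both pooled within each tissue, the difference was 6.86 for CSLF8_6Dg0001363 (SE 0.96, adjusted p = 1.99e-07) and 4.40 for CSLF8_6Ag0001684 (SE 0.598, adjusted p = 4.33e-09). That fit took libraries of different hours as replicates. At 0 h CSLF8_6Ag0001684 had no count in any library and CSLF8_6Dg0001363 at most 0.111 CPM, in 2 of 6 embryo libraries.

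The levels of CSLF8_6Dg0001363 in embryo were 0.0361, 0.426 and 0.433 CPM in CDC Morrison at 6 h, 0.444, 1.17 and 1.36 CPM at 24 h and 0.561, 1.31 and 1.95 CPM at 48 h. In AC Morgan they were 0.118, 0.613 and 0.0878 CPM at 6 h, 1.51, 1.97 and 2.97 CPM at 24 h and 4.77, 5.30 and 4.10 CPM at 48 h. The AC Morgan libraries lay above all those of CDC Morrison at 24 h and at 48 h. At 48 h the difference, CDC Morrison minus AC Morgan, was −1.88 and did not pass the test (SE 0.693, adjusted p = 0.0887). It passed with a replicate block (−2.11, adjusted p = 0.018) and with limma on the normalized values of the authors (−1.38, adjusted p = 8.59e-08). For the summed pair at 48 h it was −1.79 (SE 0.675, adjusted p = 0.0918). Over the 5 hours, with no count in CDC Morrison at 0 h, CSLF8_6Dg0001363 was lower in CDC Morrison embryo (−1.51, SE 0.573, adjusted p = 0.0466; 13.2% of genes lower), as was the summed pair (−1.55, SE 0.558, adjusted p = 0.0334), while DESeq2 did not call CSLF8_6Dg0001363 (−1.39, adjusted p = 0.102).

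CSLF8_6Ag0001684 was lower in counts, with 0.0808, 0.452 and 0.528 CPM in CDC Morrison embryo at 24 h and 0.0697, 0.538 and 0.560 CPM at 48 h. In AC Morgan embryo it had 0.557, 0.724 and 0.990 CPM at 24 h and 1.67, 1.03 and 0.479 CPM at 48 h. At 24 relative to 6 h the embryo level of CSLF8_6Dg0001363 was higher by 2.24 (SE 0.548, adjusted p = 0.00124), while CSLF8_6Ag0001684 did not pass (1.23, adjusted p = 0.131). The first call was lost without replicate 3 (1.83, adjusted p = 0.0536).

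Both members were higher in embryo than in endosperm at 24 and 48 h within each cultivar. Against a floor of 3 counts in endosperm CSLF8_6Dg0001363 was at least 17.5-fold and 18.5-fold higher in CDC Morrison at 24 and 48 h (adjusted p = 0.000138 and 0.000162) and at least 26.4-fold and 48.1-fold higher in AC Morgan (adjusted p = 5.54e-05 and 9.67e-06). In CDC Morrison, where 28.4% of genes at 24 h were called higher in embryo, CSLF8_6Ag0001684 also passed at 24 h (adjusted p = 0.0069) and at 48 h (adjusted p = 0.0101), as it did in AC Morgan (adjusted p = 0.00326 and 0.00196). DESeq2 did not call CSLF8_6Ag0001684 in CDC Morrison at 24 h (adjusted p = 0.0512) or 48 h (adjusted p = 0.079), and neither hour passed without replicate 2 or 3. At 6 h CSLF8_6Dg0001363 passed in both cultivars (adjusted p = 0.0143 in CDC Morrison, 26.6% of genes higher, and 0.0477 in AC Morgan, 17.4%), and CSLF8_6Ag0001684 in neither (adjusted p = 0.0784 and 0.209). The AC Morgan call at 6 h was lost without any one of 4 of the 6 libraries (adjusted p up to 0.302) and with DESeq2 (adjusted p = 0.11), and that of CDC Morrison without replicate 2 (0.102) or 3 (0.108).

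CSLF8_2Cg0000603 had 1.11, 2.09 and 4.67 CPM as the lowest, median and highest of 30 embryo libraries and 0.856, 2.14 and 4.2 CPM of 30 endosperm libraries. Over the 5 hours the tissues differed by 0.06 (SE 0.116, adjusted p = 0.709). With library size alone the difference was 0.56 (adjusted p = 5.03e-05), which moved the median of all genes to 0.66, against 0.18 with TMM. In embryo the gene rose by 0.88 at 48 relative to 0 h (SE 0.251, adjusted p = 0.00205). At 48 h it had 1.48, 1.95 and 2.88 CPM in CDC Morrison embryo, against 4.11, 4.67 and 4.38 CPM in AC Morgan embryo, lower in CDC Morrison by a difference of −1.06 (SE 0.334, adjusted p = 0.0272; 5.45% of genes lower). In endosperm at 24 h the order was the reverse, with 2.91, 3.99 and 3.21 CPM in CDC Morrison, against 1.46, 1.58 and 1.70 CPM in AC Morgan, a difference of 1.07 (SE 0.360, adjusted p = 0.0386). The embryo call was lost without any one of 5 of the 6 libraries (adjusted p up to 0.226), and the endosperm call without any one of its 6 (adjusted p up to 0.165).

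The D share of the chromosome 2 pair in germinating embryo was 32.2 ± 9.51% at 0 h (SD, n = 6), 31.7 ± 4.35% at 3 h (n = 5), 44.7 ± 8.87% at 6 h, 75.1 ± 5.30% at 24 h and 77.8 ± 4.99% at 48 h (n = 6 each). In endosperm, with fewer libraries of at least 20 counts, it was 17.5% at 0 h (n = 1), 22.9 ± 2.76% at 3 h (n = 2), 17.8 ± 8.72% at 6 h (n = 4), 40.5 ± 18.7% at 24 h (n = 5) and 35.7 ± 6.48% at 48 h (n = 5). The mean at 24 h merged cultivars that did not overlap, 44.9 to 57.8% in CDC Morrison (n = 3) and 10.8 to 35.5% in AC Morgan (n = 2). That difference was not tested. With a minimum of 10 counts the endosperm share at 0 h was 19.6 ± 24.55% (n = 6). It ran from 0% in AC Morgan libraries to 50.1% in a CDC Morrison library of 15 counts, and the early endosperm share is thus poorly known. Embryo libraries lay above all endosperm libraries of the same hour at 6, 24 and 48 h. Within cultivar and hour the share was higher in embryo by 30.4 points in a permutation test (p = 1e-05, the smallest that 100000 permutations can give, adjusted p = 8e-05, two-sided). Exact permutation tests gave 29.6 points at 6 h (p = 0.0125, adjusted p = 0.025), 37.5 points at 24 h (p = 0.005, adjusted p = 0.0133) and 42.8 points at 48 h (p = 0.005, adjusted p = 0.0133), while the 0 h and 3 h libraries allowed only 4 and 10 arrangements, too few to reach 0.05. With a minimum of 50 counts the differences were 22.1 points at 24 h and 39.8 points at 48 h. At 24 h only 3 against 3 libraries were then left, with no p under 0.1 possible, and at 48 h the exact permutation test gave an adjusted p of 0.0625. In the chromosome 6 pair the D gene took 58.3 to 89.5% of the counts in 12 embryo libraries.

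The other genes of the pathway changed in both directions. The 16 genes followed were 10 further CSLF genes, 3 CSLH1 genes and 3 genes annotated GUB2, a glucanase that breaks down MLG. Of these, 5 were higher and 7 lower in later than in young grain, against 30.5 and 38.4% of all genes, with a median difference of 0.06 for the list and −0.07 for all genes. With limma on the normalized values 9 were higher. CSLF6_7Ag0002427 fell by 2.29 (SE 0.259, adjusted p = 7.7e-10), whereas CSLF2_2Ag0000007 rose by 5.54 (SE 0.726, adjusted p = 2e-08), CSLH1_2Cg0001868 by 2.04 (SE 0.323) and CSLF7_3Dg0002125 by 1.88 (SE 0.228). CSLF3_7Ag0000492 and CSLF3_2Dg0002575 were lower, by −5.79 and −6.11, with no count in 11 and 7 of the 16 groups. The 4 control genes differed by −0.04 to 0.07 and none passed.

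In germination 2 of the 16 genes were higher and 9 lower in embryo than in endosperm (37.6 and 28.8% of all genes), with a median of −1.55 for the list and 0.18 for all genes. The higher count was 4 with library size alone and with limma, and 6 with cultivars and hours pooled. The lowest p-values belonged to CSLF2_2Dg0002574 (−5.26, SE 0.241), CSLF2_2Ag0000007 (−5.59, SE 0.261), CSLH1_2Ag0001132 (−2.91, SE 0.147), CSLH1_2Cg0001868 (−2.21, SE 0.129), CSLF7_3Dg0002125 (−2.27, SE 0.182) and CSLF6_7Ag0002426 (−1.84, SE 0.156), all lower in embryo. CSLF8_2Dg0002573 and the chromosome 6 pair were on the other side, higher in embryo. Of the 4 control genes, with differences of −0.72 to 0.12, 1 was lower in embryo.

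The genes whose levels ran most like those of the CSLF8 genes were sought by Pearson's r of log2 CPM over the libraries of an experiment, which share days, hours and tissues. In developing grain (47 libraries, 55463 genes) each member of the chromosome 6 pair was the first match of the other (r = 0.961), followed by a probable apyrase 3 (r = 0.952 with CSLF8_6Ag0001684 and 0.933 with CSLF8_6Dg0001363). CSLF8_6Dg0001363 was also close to a subtilisin-like protease SBT1.4 (r = 0.944) and CSLF8_6Ag0001684 to a GDSL esterase/lipase (r = 0.934). CSLF8_2Dg0002573 was closest to genes matched to the kinesin-like protein KIN-7F (r = 0.923), a tubulin beta-3 chain (r = 0.920) and NETWORKED 1D of Arabidopsis (r = 0.919). CSLF8_2Cg0000603 had no close match, the first being a gene matched to IDM1 of Arabidopsis (r = 0.752), and its r with CSLF8_2Dg0002573 was 0.658.

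In germination (60 libraries, 56825 genes) CSLF8_6Dg0001363 ran closest to the GDSL esterase/lipase LTL1 (r = 0.983), Peroxidase 12 (r = 0.975) and the receptor kinase XIAO (r = 0.973). CSLF8_6Ag0001684 had 2 genes with no annotation first (r = 0.918 and 0.914) and CSLF8_6Dg0001363 sixth (r = 0.907). CSLF8_2Dg0002573 was closest to the transcription factor ILI6 (r = 0.883), a dicarboxylate transporter (r = 0.877) and UDP-glucose 6-dehydrogenase 4 (r = 0.877), an enzyme that makes UDP-glucuronate for wall polysaccharides. For CSLF8_2Cg0000603 no r exceeded 0.621.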

How the data were processed

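RNA of whole grain and of germinating embryo and endosperm was sequenced as stranded single-end libraries. For developing grain the authors extracted total RNA and made the libraries with a stranded mRNA kit. The authors trimmed the reads, removed rRNA reads, quantified the remainder with Salmon on the transcriptome of oat line OT3098 (v2) and summed transcripts to genes. They deposited these estimated counts for 68572 genes, without normalization or filter. Tools named in the submitters' processing notes are FastQC, Trim Galore, Bowtie2, Salmon and DESeq2, with versions not given in the sources used here. A second table deposited by the authors holds values after the variance-stabilizing transformation of DESeq2, close to a log2 scale, used here for the limma alternative only, with no pseudocount added. All 108 libraries were grouped by the labels, and no per-sample column was left unused.

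The counts, rounded to whole numbers, were analysed with edgeR 4.0.16 in R 4.3.3. A gene was kept if 5% of libraries or more held 5 counts or more of it, which left 62030 genes in developing grain (47 libraries) and 62447 in germination (60 libraries). Libraries were scaled by TMM. All 16 groups of grain and all 20 of germination entered a single fit each, and each contrast was tested by quasi-likelihood, with p-values adjusted by the Benjamini-Hochberg method over every gene tested and a threshold of 0.05. Averages over groups of which several hold no count can give a test with no usable precision, and such tests are named as not usable. Bounds used a floor of 3 counts over the group, and intervals are 95% exact binomial intervals of summed counts. Shares were tested by permutation within cultivar and hour, or within days, exactly or with 100000 resamples, two-sided, on libraries with at least 20 counts of the pair, with adjustment over 8 tests. Levels for Pearson's r were log2 CPM with a prior count of 2. The tests were tried on simulated counts.

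The genes named are the 4 CSLF8 genes, the 16 other CSLF, CSLH1 and GUB2 genes as counts with at most 6 named per contrast by smallest p, 4 control genes as a range, and the 3 genes with the highest r for each CSLF8 gene among genes with at least 1 CPM as the mean of a group. The members and lists were chosen with earlier results of these data known. Alternatives were DESeq2 1.42.0, limma 3.58.1, RLE size factors, library size alone, filterByExpr or no filter on low counts, summed homeologs, a replicate block, other windows, left-out replicates and all 48 libraries. Cultivars pooled by time point, cultivars pooled together with days or hours, and the omission of the highest 5 DPE libraries were added after the data were seen. Libraries of 1 group are separate samples by the labels, and no pair differed as little as sampling noise (variance at least 10.8 times counting error in grain and 2.52 times in germination). Replicate numbers were not taken as pairs in the main fit. The deviations of same-numbered libraries from their group means had a mean r of 0.00261 in grain, against −0.00127 for other-numbered libraries. In germination these values were 0.0757 and −0.0365, so that a weak link by replicate number was not excluded there. The replicate block was the alternative that allowed for it. Depth limits the chromosome 6 pair most: in a library of the median embryo total, 14795515 counts, levels under 1 CPM rest on few counts. Figures were drawn with matplotlib 3.10.9 in Python 3.11.15.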

Additional observations from a re-analysis of the deposited data

Results flagged for a closer look

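These results differed between the cultivars by a test of the difference itself. The step of CSLF8_6Ag0001684 at 10 relative to 5 DPE differed, CDC Morrison minus AC Morgan, by −12.77 on the log2 scale (edgeR, adjusted p = 0.00455), and that of CSLF8_6Dg0001363 by −8.06 (adjusted p = 0.00787). Both rest on 2 libraries of CDC Morrison at 10 DPE, with 0 and 8 counts in all, and the library of that group that was left out also had 0 counts of both genes among 2184611.

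Over the whole time course the test of cultivar by time point gave adjusted p = 0.0474 for CSLF8_6Ag0001684, and it did not pass without replicate 1 (0.269), replicate 2 (0.393) or replicate 3 (0.0526). The difference of CSLF8_2Dg0002573 between embryo and endosperm at 24 h differed, CDC Morrison minus AC Morgan, by −2.96 (adjusted p = 0.00743), with all 3 CDC Morrison endosperm libraries above all 3 of AC Morgan. No test for outlying libraries was run within groups. Single libraries were left out in turn for other contrasts, but not for these differences between the cultivars.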

How the results depend on the processing

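Of 70 results, 556 values under other settings and 276 with libraries left out kept their direction and their side of the threshold; 16 and 40 dropped below it, 16 and 2 came to pass it, 6 and 7 changed sign, and 5 and 3 counts or values moved. CSLF8_2Cg0000603 in later minus young grain (−0.33) became −1.14 with library size alone, −0.46 with all 48 libraries, −0.68 against 5 DPE alone and 0.02 against 10 DPE alone, and the summed chromosome 2 pair gave −1.84. Left-out replicates gave −0.46 to −0.11. Over the 8 days, CDC Morrison minus AC Morgan was 0.31 for CSLF8_2Cg0000603 (adjusted p = 0.157; limma 0.37, adjusted p = 0.0201) and 0.56 for CSLF8_2Dg0002573 (adjusted p = 0.02, 16.9% of genes higher; 0.48 with library size alone and 0.34 for the summed pair, neither called). The second was 0.41 to 0.66 with replicates left out and was lost without replicate 1, replicate 2 or CDC Morrison 30 DPE replicate 3.

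For CSLF8_6Dg0001363 the step at 10 DPE in CDC Morrison was −11.08 to −5.62 with replicates left out (adjusted p = 0.0556 without replicate 2), and CDC Morrison minus AC Morgan at 10 DPE was −7.39 to −5.25, and lost when either CDC Morrison library alone was left out. Embryo minus endosperm of CSLF8_2Cg0000603 over the 5 hours was 0.56 with library size alone and 0.82 for the summed pair, and −0.06 to 0.14 with replicates left out. CSLF8_6Ag0001684 in CDC Morrison at 48 h was 4.81 with DESeq2 and 4.97 to 6.03 with replicates left out. CSLF8_2Dg0002573 in embryo, CDC Morrison minus AC Morgan, was −0.30 to 0.02 with replicates left out.

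Sign changes of single steps were those of CSLF8_6Ag0001684 and CSLF8_6Dg0001363 at 10 DPE in AC Morgan, 0.39 and 0.11 with limma, 1.89 and 2.13 without the highest 5 DPE libraries and −1.89 to 2.03 and −2.77 to 2.36 with replicates left out, and that of CSLF8_2Dg0002573 at 24 relative to 6 h in AC Morgan endosperm, −0.07 for the summed pair and −0.53 to 2.23 with replicates left out. The causes were not tested. The replicate block changed 1 call, that of CSLF8_6Dg0001363 in embryo at 48 h (−2.11), and no other. The lower count of the 16 pathway genes in later grain was 3 with cultivars and days pooled. Depth limits the chromosome 6 pair after 10 DPE and in endosperm, where at most 7 counts of the pair were found in a library.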

Other observations

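A further gene annotated CSLF8, AVESA.00001b.r3.6Cg0000671 on chromosome 6C, was looked at after its values were seen, because it shares reads with the chromosome 6 pair. In developing grain it never exceeded 0.206 CPM and was under the filter on low counts. In germination it had no count in any endosperm library or in embryo at 0 and 3 h. In embryo at 24 h it had 0.727, 3.85 and 2.86 CPM in CDC Morrison and 3.02, 3.80 and 3.78 CPM in AC Morgan, and at 48 h 0.148, 0.446 and 1.02 CPM in CDC Morrison and 2.32, 2.11 and 1.42 CPM in AC Morgan. The gene on 6C thus had its highest embryo levels at 24 h, whereas CSLF8_6Dg0001363 had its highest at 48 h in both cultivars, and in young grain, where CSLF8_6Ag0001684 and CSLF8_6Dg0001363 were abundant, it stayed at that trace level. Over the 60 libraries its r with CSLF8_6Dg0001363 was 0.927.

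The list of photosynthesis genes reached 1426 CPM in embryo at 48 h, against 25.9 CPM or less in endosperm.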
